A study of Mus musculus with 4 samples.

Results

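Among 18322 named genes on the arrays, 150 were chosen as those that stood highest in the second pool of HP1γ-null cells, called null 2 here, over the other 3 pools of the study. A gene qualified where its signal was well above background on the null 2 array and higher there than on each other array. The 150 with the largest gap between null 2 and the mean of the other 3 arrays were kept out of 4228 that qualified. Collagen, Hox, keratin and globin genes, Dlk1, Meg3, Rian, Mirg, Peg3, H19, Igf2, Dcn, Lum, Pdgfra, Wt1 and Gata4 were left out by name. The genes were thus chosen by the signal of null 2 itself, so its gap to the other arrays describes them and carries no test.

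The pools held mVenus-positive cells sorted from the genital ridges of mouse embryos at embryonic day 11.5, 2 pools of each genotype. The embryos were HP1g-/-; Blimp1-mVenus tg or wild-type; Blimp1-mVenus tg, so the reporter transgene was common to both. The null allele came from a modified gene trap and was taken to homozygosity by crossing HP1g+/- carriers. No label names a background strain. RNA of 5 or 6 embryos, with about 500 to 3500 sorted cells from each embryo, made up a pool, and each pool was read on 1 array. The pools are called wild type 1, wild type 2, null 1 and null 2. They are separate embryo pools, and with 2 per genotype their number limits the precision of every value.

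HP1γ, the product of Cbx3, is a chromatin protein that binds methylated histone H3 in silent regions and also lies along active genes. Primordial germ cells, the precursors of sperm and eggs, reach the genital ridge from the hindgut and settle among coelomic epithelium, mesenchyme, mesonephric tubules, vessels and macrophages. Blimp1, encoded by Prdm1, marks the germ line from its start but is also used by other embryonic cells. Mesenchyme makes matrix and secreted signals, and muscle precursors switch on contractile genes through basic helix-loop-helix factors such as myogenin, which bind the E-box, spelled CANNTG.

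The 13 muscle and contractile genes among the 150 include 3 of the skeletal muscle programme whose start-site windows show this motif. Myog encodes myogenin itself, Chrng the embryonic gamma subunit of the muscle acetylcholine receptor and Myh3 the embryonic myosin heavy chain. Each window runs from 250 bases before to 50 after the start, is given by RefSeq on GRCm38.p6 and reads 5′ to 3′ on the plus strand, with each CANNTG in capitals. They lie at chr1:134289754-134290053 for Myog, chr1:87205561-87205860 for Chrng and chr11:67078050-67078349 for Myh3.
Myog: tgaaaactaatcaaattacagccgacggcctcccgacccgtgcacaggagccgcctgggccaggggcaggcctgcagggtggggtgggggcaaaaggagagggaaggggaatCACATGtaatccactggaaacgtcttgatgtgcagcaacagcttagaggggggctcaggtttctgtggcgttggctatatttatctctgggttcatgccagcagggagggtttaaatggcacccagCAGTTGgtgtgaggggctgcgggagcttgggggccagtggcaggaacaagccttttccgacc
Chrng: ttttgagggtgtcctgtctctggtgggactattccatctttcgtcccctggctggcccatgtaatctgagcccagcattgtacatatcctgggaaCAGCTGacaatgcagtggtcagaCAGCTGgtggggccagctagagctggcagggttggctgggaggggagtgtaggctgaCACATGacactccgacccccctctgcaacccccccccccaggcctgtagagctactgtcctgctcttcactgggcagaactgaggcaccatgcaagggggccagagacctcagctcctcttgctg
Myh3: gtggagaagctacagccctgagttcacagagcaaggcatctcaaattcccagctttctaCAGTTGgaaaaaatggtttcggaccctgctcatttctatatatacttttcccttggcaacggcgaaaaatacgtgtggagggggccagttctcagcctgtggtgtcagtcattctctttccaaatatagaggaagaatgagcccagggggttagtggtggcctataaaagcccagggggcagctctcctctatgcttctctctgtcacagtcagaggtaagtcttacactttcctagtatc
The Myog window holds 2 matches, the Chrng window 3 and the Myh3 window 1. CANNTG reads as CANNTG on the other strand too, so both strands give the same matches. Of the 13 windows found for 11 of the muscle genes, 84.6% held a match, against 67.6% of 18063 windows of all named genes and 61.0% of the 136 windows of 104 of the 150 genes. The windows of the 150 genes had a median observed to expected CpG ratio of 0.45, against 0.64 over all windows. The SP1 box GGGCGG was found on either strand in 39.0% of the windows of the 150 genes and in 51.1% of all windows, and the TATA box TATAAA in 14.0% and 11.4%. Of the other motifs looked for, GATAAG was in 13.2% and 6.4%, TGTTTAC in 0.7% and 2.9%, and ACAAAG in 19.9% and 16.3%. AGGTCA was in 11.8% and 14.0%, and CATTCC in 14.0% and 13.1%. A match describes the letters of the window and nothing about binding.

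The pools differed in more than genotype. In wild type 1, wild type 2, null 1 and null 2, the 75th percentile of the signal intensity was 188, 219, 125 and 291. The share of spots well above background was 53.3%, 56.7%, 53.8% and 63.3%. Levels below are log2 signals relative to that percentile of the same array, so 0 is the percentile itself. The targeted gene Cbx3 had levels of 5.89, 5.72, -1.24 and -2.78 in this order, low in both null pools. Of 15 germ cell markers measured, 14, 14, 15 and 5 were well above background, and their median level was -0.80, -2.35, 0.92 and -5.41. In null 2, Dppa3, Pou5f1 and Ddx4, which define these cells, were not well above background, and their levels there were -7.04, -5.33 and -6.73. By these markers null 2 goes against the cell type its label gives. Prdm1, the gene of the reporter, was seen in every pool at 1.24, 1.27, 1.48 and 0.65. Endothelial markers had medians of 3.15, 3.18, 2.67 and 2.53 over 16 genes and leukocyte markers 3.94, 4.18, 4.14 and 3.84 over 12 genes, so both cell types gave signal in every pool. Germ cell signal was lowest, and array brightness and detection highest, in the pool that chose the 150 genes, and their part in the result was not tested. In pooled RNA, fewer cells of a type and less RNA per cell cannot be told apart.

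The 150 genes were mostly dim or unseen outside null 2. Their median level was -4.32, -5.38 and -4.69 in wild type 1, wild type 2 and null 1, and -0.93 in null 2, where single genes ranged from -3.22 to 5.37. Over all named genes the medians were -1.35, -1.36, -1.24 and -1.19. The gap of null 2 to the mean of the other arrays had a median of 3.36 and ran from 2.73 to 6.67. Null 2 was the highest array for 25.0% of all named genes, and for 6.51% it was also at least 2-fold above that mean, as the rule makes it for all 150. Well above background on no other array were 81 of the 150, on 1 other array 25, on 2 others 15 and on all 4 arrays 29. These counts go by the probe used for each gene, and of the 81 a further probe of Rgs8 was seen in wild type 1 and one of Pcdhac2 in null 1. Among all named genes, 837 were seen on null 2 alone, against 60, 98 and 193 on wild type 1, wild type 2 or null 1 alone. For a gene seen on null 2 alone only a bound can be given, which sets null 2 against the higher, on each other array, of the gene's own signal and the lowest signal well above background there. These bounds for 81 genes ran from 1.48-fold to 64.5-fold, with a median of 3.29-fold. At the limit of 150, Ccdc80, Lrrc4c and Pcdh8 were the last inside, with gaps of 2.75, 2.74 and 2.73. Ccn4, Slc4a3 and Cdh2, at 2.73 each, were the next outside. Of the genes left out by name, 12 would have been inside, led by Col6a1 at 5.27 and Rian at 4.97.

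**Figure D1:**
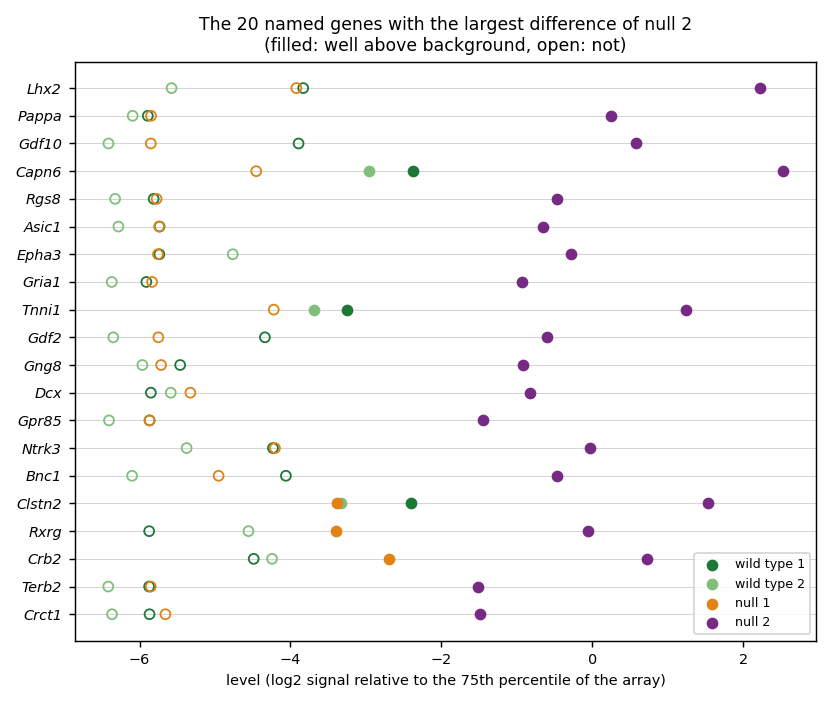
Levels (log2 signal relative to the 75th percentile of the array, horizontal axis) of the 20 named genes with the largest gap, 1 point per pool, filled where well above background. The null 2 points lie between -1.52 and 2.52, while most points of the other pools are open and lie below -3.

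The plot of the 20 leading genes shows a filled point for null 2 beside open points for the other pools in most of its lines. Its 20 genes pass over clone names and run from Lhx2 to Crct1.

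Transcription and chromatin factors made up 22 of the 150, and 11 of them were seen on null 2 alone, beside 81 of all 150. Lhx2, a LIM homeobox factor of limb, eye and forebrain, had levels of -3.83, -5.58 and -3.92 in wild type 1, wild type 2 and null 1, none of them well above background, and 2.23 in null 2. It was at least 64.5-fold higher in null 2, the highest bound among the 150. Bnc1, a zinc finger factor of epithelium and mesothelium, was at least 9.97-fold higher by the same rule, at -0.47 in null 2. Rxrg, a retinoid X receptor, was the only gene of a retinoic acid list of 18 measured genes among the 150, and read -5.87, -4.56, -3.40 and -0.06. Only null 1 and null 2 were well above background for Rxrg, and null 1 stood between the wild-type pools and null 2.

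Several of these factors are known from mesenchyme and its derivatives. Tcf21, a factor of kidney and gonad mesenchyme, read -3.12, -4.71, -5.81 and -0.57, with wild type 1 and null 2 well above background. Scx, the tendon factor scleraxis, was well above background on all arrays and read -1.48, -2.21, -1.84 and 1.38, which is 9.37-fold over the mean of the other 3. Twist1, a mesenchymal helix-loop-helix factor, read -2.31, -2.88, -3.49 and 0.32, or 9.30-fold. In both genes the 3 other pools lay closer to each other than any of them to null 2. Osr1, a zinc finger factor of intermediate mesoderm, read -3.37, -4.47, -4.44 and -0.69. Pax1, a factor of the sclerotome, was at least 6.52-fold higher in null 2 by the probe used. A further Pax1 probe was not well above background there. Isl1, a homeobox factor of lateral mesoderm and motor neurons, read -3.66, -3.60, -2.99 and -0.26. Smarcd3, a subunit of the BAF remodelling complex of muscle and heart, read -2.45, -2.36, -2.13 and 0.72, with all 3 other pools close together.

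Secreted ligands, their binding proteins and receptors were 24 of the 150. Pappa, a protease that cleaves insulin-like growth factor binding proteins, read -5.89, -6.09, -5.85 and 0.25, and was at least 16.3-fold higher in null 2 by the probe used. A further Pappa probe was also seen on null 2 alone, at -4.61, which is too dim to give a fold. Gdf10 and Gdf2 are bone morphogenetic protein relatives that lie next to each other in the RefSeq gene order. Gdf10 read -3.89, -6.41, -5.85 and 0.58, with a bound of 20.6-fold, and Gdf2 -4.34, -6.35, -5.75 and -0.61, with a bound of 9.05-fold. Both were seen on null 2 alone. Gdf6, a further ligand of this family, had a bound of 6.22-fold. Tgfb3, a transforming growth factor beta ligand, was seen on all arrays at -0.95, -1.89, -2.38 and 2.55, or 19.5-fold.

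The bone morphogenetic protein and transforming growth factor beta pathway gave 3 of the 150. Of its 38 genes seen on an array other than null 2, 21 were highest in null 2. The Wnt pathway gave 4 of the 150, and 21 of its 39 genes seen elsewhere were highest in null 2. The Wnt antagonist Dkk1 read -5.67, -4.72, -3.71 and -0.50 and was at least 9.73-fold higher in null 2. Sfrp1, a secreted Wnt binding protein, read 0.90, -0.08, -0.77 and 3.40, or 10.5-fold, with signal on every array. The ligand Wnt2 had a bound of 5.08-fold, and the receptor gene Ror1 one of 1.67-fold. For comparison, 28.6% of the 12854 named genes seen on an array other than null 2 were highest in null 2.

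Several growth factors were seen on every array. Cxcl12, the chemokine that guides migrating germ cells and is made by their surroundings, read 2.39, 1.90, 1.41 and 5.37, or 11.1-fold. Ptn, the heparin-binding growth factor pleiotrophin, read 1.54, 0.65, 0.40 and 4.95, or 17.0-fold. In both, wild type 1 was next after null 2 and null 1 was lowest. Ngfr, the low-affinity neurotrophin receptor of neural crest and mesenchyme, followed the same order at -1.13, -2.51, -2.74 and 1.23. Ntrk3, the receptor of neurotrophin 3, was at least 13.5-fold higher in null 2, where it read -0.03. Epha3, an ephrin receptor, was at least 11.4-fold higher, at -0.28 in null 2. Pdgfc, a ligand of the platelet-derived growth factor receptor alpha, read -2.63, -3.31, -0.31 and 0.76, so null 1 was nearer to null 2 than to the wild-type pools. The receptor gene Ephb3 had the same order at -2.78, -3.15, -1.74 and 0.23. Of 64 growth factor genes seen on an array other than null 2, 32 were highest in null 2, against 28.6% of all such named genes.

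Neuronal, synaptic and ion channel genes were the largest named class, with 26 of the 150. Of these, 18 were seen on null 2 alone, as were 81 of all 150. Roles were given to the 150 only, so the class sizes have no share over all genes beside them. Asic1, an acid-sensing ion channel, had a bound of 8.74-fold and Gria1, a glutamate receptor subunit, one of 7.23-fold. The probe used for Rgs8, a regulator of G protein signalling in neurons, was seen on null 2 alone, while its further probe was higher in wild type 1, so no fold is given. Dcx, the microtubule protein of young neurons, had a bound of 7.80-fold by the probe used and is next to Capn6 in the gene order. The neurofilament genes Nefl and Nefm are also neighbours. Nefl read -2.69, -3.71, -3.93 and 0.34 and was seen in both wild-type pools and null 2, and Nefm was seen on null 2 alone, with a bound of 6.20-fold. Gng8, a G protein gamma subunit, had a bound of 7.29-fold. Ncam1 encodes the neural cell adhesion molecule, which mesenchyme and the early urogenital ridge also use. By the probe used it was seen on all arrays at 0.22, -0.82, -0.62 and 2.76, or 8.98-fold. Further Ncam1 probes seen on all arrays had gaps of 3.12, 1.79 and -0.36. The last of them read -3.07, -2.82, -2.95 and -3.31, so null 2 was lowest there. Of 20 neuronal and neural crest markers seen on an array other than null 2, 6 were highest in null 2 and the median gap was -0.13. That count is near the 28.6% of all such named genes.

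Amph and Lgi2 were among the genes high in both null pools. Amph encodes amphiphysin, which bends membranes at synapses, and read -2.07, -2.76, 1.93 and 3.22. Lgi2, a secreted protein of synapses, read -5.52, -6.15, -1.92 and -0.69 and was well above background only in the null pools. Kcnab1 of the same class read -5.45, -4.59, -1.87 and -1.10 by the probe used, while its further probe was seen on null 2 alone. Sprr2d, of another class, read -4.04, -5.60, -0.90 and -0.44. For each of these genes, by the probe used, the null 1 pool lay closer to null 2 than to either wild-type pool.

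Muscle and contractile genes numbered 13. Tnni1, slow troponin I, read -3.26, -3.68, -4.22 and 1.24, with null 1 not well above background. Myog, whose start-site window is printed above, read -3.68, -3.84, -5.49 and -0.62, and Myh3 -4.27, -2.61, -4.40 and -0.27. Chrng read -3.32, -4.27, -5.75 and -1.62 by the probe used. For these 4 genes null 1 was not well above background, and for Myog, Myh3 and Chrng a single wild-type pool was so beside null 2. A further Tnni1 probe was seen in null 1, at -3.50 beside -3.61 and -3.86 in wild type 1 and 2. Kcnj8, a potassium channel subunit of pericytes and smooth muscle, read -0.85, -1.29, -1.71 and 2.13, or 10.6-fold. Pgm5, a phosphoglucomutase relative at muscle adhesion sites, read -0.69, -1.30, -2.88 and 2.20, or 14.2-fold. Both again had null 1 lowest and wild type 1 next after null 2. Of the pericyte gene Rgs5 and the intermediate filament gene Des, seen on null 2 alone, the bounds were 5.45-fold and 2.63-fold. Popdc2, a cyclic AMP binding membrane protein of heart and muscle, had a bound of 8.11-fold.

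Matrix, matrix enzyme and adhesion genes numbered 23 with the collagens already left out. Clstn2, a calsyntenin of the cadherin family, read -2.41, -3.33, -3.38 and 1.53 by the probe used. Its ratio of 23.7-fold by that probe was the largest among the genes seen on all arrays. A further Clstn2 probe was seen on null 2 alone, at -3.29, with a gap of 2.64. Another had a gap of 0.11 and gave no signal clear of background in null 2. Fbln2, the matrix glycoprotein fibulin 2, read 0.10, -2.04, -1.84 and 2.94, or 18.4-fold. Here wild type 1 stood between null 2 and the other pools. Mfap4, a microfibril protein, read 0.29, -0.59, -1.33 and 2.65, or 9.13-fold. Smoc2, a calcium-binding matrix protein, read -1.79, -3.41, -4.08 and 0.14. Loxl1, an elastin cross-linking oxidase, read -1.97, -3.82, -3.53 and 0.45. Adamts2, which trims procollagens, read -2.83, -5.02, -3.61 and -0.29 by the probe used. In each of these 3 genes wild type 1 was next after null 2. Crb2, an apical polarity protein, instead read -4.49, -4.24, -2.69 and 0.72, with only the null pools well above background. Cdh3, which encodes P-cadherin, read -5.74, -6.38, -3.46 and -2.19, and likewise was seen in the null pools only.

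Among the genes of other roles, Capn6, a calpain without protease activity that binds microtubules, read -2.37, -2.96, -4.45 and 2.52. That gap of 5.78 was exceeded only by those of Lhx2, Pappa and Gdf10. The imprinted genes Nnat and Zim1 were the 2 members from a list of 33 measured imprinted genes. Nnat, encoding neuronatin, read -0.58, -1.08, -0.91 and 2.12 and Zim1 -2.90, -5.44, -1.65 and -0.19. The long non-coding transcript Dnm3os, which carries microRNAs of mesenchyme, read -1.43, -1.98, -2.29 and 0.96. Cyp2a4 and Cyp2a5, and Ccl21a with its copies, are near-identical to relatives, so their probes may not tell them apart. In all, 35 genes were given no role, Capn6 and the Cyp2a genes among them, and 26 of these were seen on null 2 alone. Among them were the olfactory receptor genes Olfr493 and Olfr138, the casein gene Csn1s1 and the Ly49 family receptor gene Klra17, with bounds from 1.52-fold to 2.48-fold.

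Of the 150 genes, 52 belonged to at least 1 of 27 lists of cell type markers and pathway genes. A gene seen on null 2 alone is highest there by its detection, so counts and gaps are given over genes seen on another array, still with the 150 among them. They rest on the same null 2 values as the rule and are a description. Skeletal muscle markers were highest in null 2 for 10 of 14 such genes, with a median gap of 1.17, and 3 of the 14 are among the 150. Smooth muscle markers were so for 8 of 13, with a median gap of 0.80, and mesenchymal markers for 28 of 47, with 0.77. Of coelomic epithelium markers 2 of 7, or 28.6%, were highest in null 2, which is near the share over all genes. Their median gap was 0.45, and 4 more were seen on null 2 alone. Over the 12854 named genes seen on another array 28.6% were highest in null 2, and the median gap was -0.07. No gene of any list was called between null 1 and wild type, where no probe was.

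**Figure D2:**
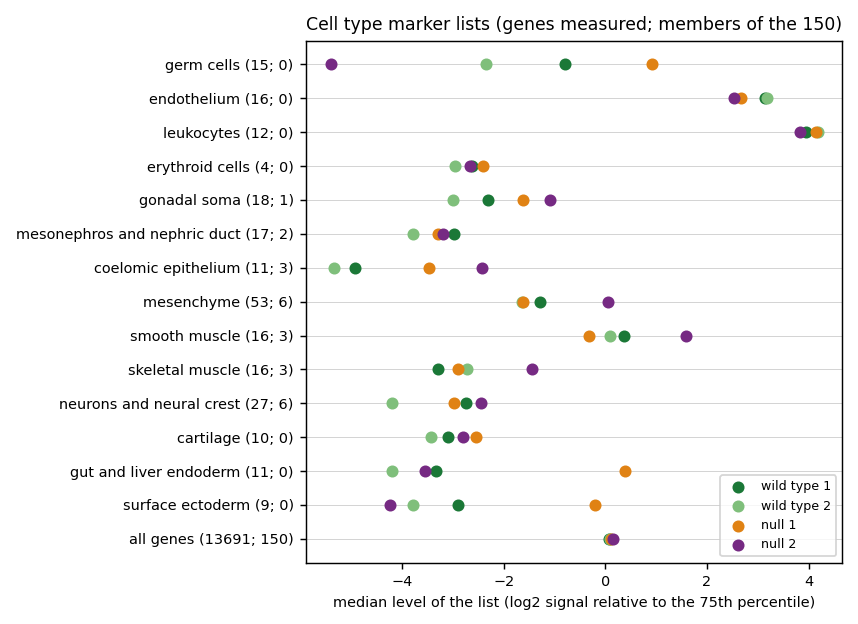
Median level of each cell type marker list (log2 signal relative to the 75th percentile of the array, horizontal axis), 1 point per pool, with the number of genes measured and the number among the 150 in brackets. Null 2 is lowest for germ cells at -5.41, and also for endothelium, leukocytes and surface ectoderm, and highest for smooth muscle, skeletal muscle, mesenchyme, coelomic epithelium, gonadal soma and, by a small margin, neurons and neural crest.

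The plot of the marker lists, whose medians take in genes seen on any array, also shows where null 2 was not high. Of gonadal somatic markers seen on another array 9 of 16 were highest in null 2, against 28.6% of all such named genes. Their median gap was 0.76, but only Tcf21 of them is among the 150. Mesonephric markers had a median gap of -0.42 over 15 genes, although Calb1 and Osr1 are among the 150. Cartilage markers had a median gap of -0.32 over 8 genes. Gut and liver markers had -1.49 over 10 genes and surface ectoderm markers -1.24 over 9 genes, and no gene of these 3 lists is among the 150. In those last lists null 1 was the high pool, as with Afp, the fetal liver protein, at -1.80, -1.39, 3.55 and -1.78. Cell cycle genes had a median gap of -0.25 over 23 genes and immediate early genes, which respond to cell dissociation, -0.22 over 22 genes. Neither list gave any of the 150. Among signalling lists the median gap was 0.42 for the bone morphogenetic protein and transforming growth factor beta genes, 0.53 for Wnt, 0.58 for hedgehog, 0.09 for retinoic acid and -0.15 for Notch, over genes seen on another array.

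The 29 genes seen on all 4 arrays could be ordered over every pool. Their medians were -1.28, -2.04, -1.74 and 1.75, and the ratio of null 2 to the mean of the others ran from 6.73-fold to 23.7-fold, with a median of 9.37-fold. Next after null 2 came wild type 1 for 20 genes, null 1 for 9 and wild type 2 for none. Among all 11313 genes seen on every array, the highest of these 3 pools was wild type 1 in 22.5%, wild type 2 in 36.6% and null 1 in 40.8%. Wild type 1 exceeded wild type 2 for 27 of the 29, with a median difference of 0.59, against 45.3% of the 11313 genes and a median of -0.02. The wild-type pools thus differed from each other in the level of these genes.

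**Figure D3:**
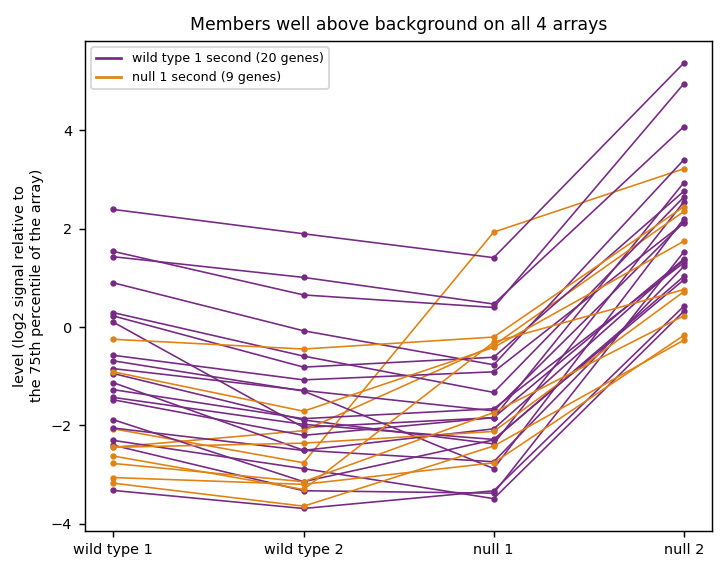
Levels of the 29 genes seen on all 4 arrays (log2 signal relative to the 75th percentile of the array, vertical axis) across the 4 pools, with 1 line per gene coloured by the pool that comes next after null 2. Most lines dip from wild type 1 to wild type 2 and null 1, and 9 lines have null 1 next after null 2.

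The lines of the plot over all 4 arrays are coloured only by the pool next after null 2. For some genes that order was close, as for Cntfr at -3.326 in wild type 1 and -3.333 in null 1. The 20 genes with wild type 1 next include Tgfb3, Ptn, Cxcl12, Sfrp1, Ngfr, Fbln2, Mfap4, Twist1, Scx, Kcnj8 and Pgm5. The 9 with null 1 next were Amph, Rprm, Smarcd3, Pdgfc, Nlgn2, Cux2, Ephb3, Runx1t1 and Ccdc80. Rprm, a p53-induced inhibitor of the cell cycle, read -2.45, -2.11, -0.37 and 2.35.

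Whether the 150 genes also differ between null 1 and wild type is a separate comparison, since null 2 gives neither a level nor spread to it. The rule did average null 1 with the wild-type pools, however, so a low value in any of them helped a gene in, and the split below is read as a description. Limma called 0 of 22877 probes (0.0%) at an adjusted p under 0.05, while 4987 passed that value unadjusted. Of the 150 genes 56 were tested and none was called. Unadjusted, 17 of them were higher and 4 lower, and over the 12346 genes tested these shares were 11.6% and 8.29%. Of the 56, 18 were tested only because null 1 itself was well above background, which favours higher values there. At least 2-fold above both wild-type pools were 15 of these 18, against 70.0% of the 770 genes tested in that way. The median difference was 1.86 for the 18 and 1.86 for the 770, so the 18 were like all such genes. Over all 150, seen in null 1 or not, null 1 read above both wild-type pools for 66, against 49.3% of all named genes.

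The other 38 were well above background in both wild-type pools. Of these, 29 were also well above background in null 1. Null 1 lay above both wild-type pools for 9 of the 29 and below both for 12, where all 11350 such genes gave 41.0% and 41.2%. At least 2-fold above were 4, namely Amph, Pdgfc, Rprm and Ephb3, against 4.04% of those genes. At least 2-fold below were 3, namely Pgm5, Sfrp1 and Mfap4, against 1.39%. The median difference was -0.09, against 0.00 over the 11350 genes.

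The remaining 9 genes were not well above background in null 1, so only bounds can be given there. These were Capn6, Tnni1, Flnc, Colec11, Nefl, Loxl1, S1pr3, Smoc2 and Fibin. S1pr3, a sphingosine 1-phosphate receptor, was at least 2.33-fold lower in null 1 than the wild-type mean, and Flnc, the muscle filamin, at least 2.01-fold. The bounds of the other 7, Capn6 among them at 1.85-fold, ran from 1.06-fold to 1.94-fold. Among the ligands and receptors seen on all arrays, Tgfb3, Ptn, Cxcl12, Sfrp1 and Ngfr were below both wild-type pools in null 1, and Pdgfc and Ephb3 above both.

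**Figure D4:**
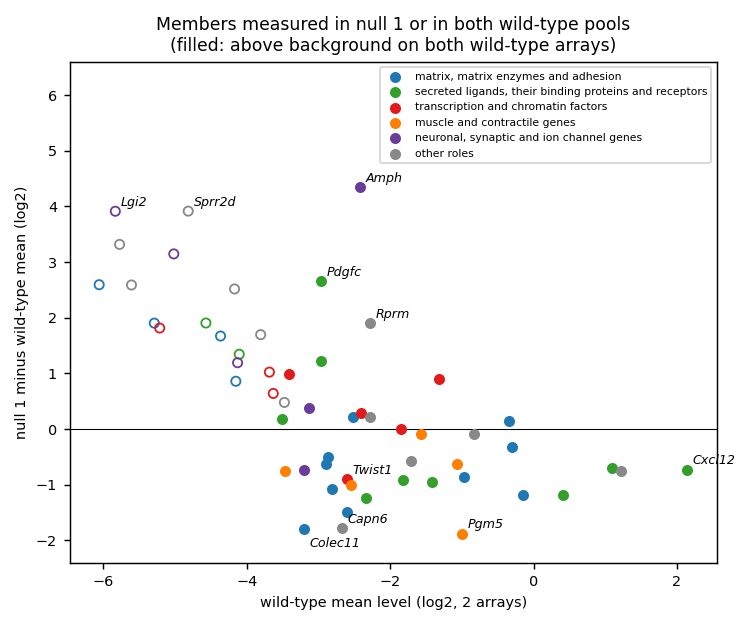
Null 1 minus the wild-type mean (log2, vertical axis) against the wild-type mean level (log2 relative to the 75th percentile, horizontal axis) for the 56 genes tested, coloured by role and filled where both wild-type pools were well above background. Most filled points lie below 0, down to -1.88 for Pgm5, while Amph, Pdgfc and Rprm lie above. The open points entered through null 1 alone, which favours high values, and the exact differences of filled points count signals of null 1 that were not all well above background.

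In the plot of null 1 against wild type, the genes with the smallest unadjusted p in each direction were the following. Amph was higher by 4.35 with SE 0.37, and Styk1, a receptor-like kinase gene, by 1.91 with SE 0.15 (limma adjusted p = 0.0707 for each). Styk1 was not well above background in either wild-type pool. Colec11, a secreted collectin, differed by -1.80 and Fibin, a secreted factor of the limb and fin, by -1.07. These differences use null 1 signals not well above background, so the bounds were at least 1.28-fold and 1.68-fold lower. Colec11 read -3.24 and -3.16 in wild type 1 and 2 and 0.08 in null 2, while null 1 gave it no signal clear of background. Fibin read -2.84, -2.77, -3.88 and -0.29, and in null 1 it too was not clear of background. No gene of the 150 passed the threshold, and null 1 is a single pool whose own spread is taken to be that of the wild-type pair.

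The calls of this comparison turned on the scaling. With quantile normalization limma called Lgi2, Cyp2a4 and Cdh3 higher at an adjusted p under 0.05, beside 1.36% of all probes higher, and none of the 150 lower. All 3 entered the test through null 1 alone. Scaled to the spiked-in control RNA, which put the median difference of all genes at -0.95, it called 9 of the 56 higher and 26 lower, beside 3.75% and 51.9% of all probes. Of those higher, 2 were well above background in both wild-type pools, as were all 26 lower, and the rest entered through null 1 alone. The higher ones included Amph, Pdgfc, Lgi2, Zim1 and Cdh3. With normexp background correction it called 21 higher and 6 lower, beside 10.5% and 4.3% of all probes. Of the 21, 6 were well above background in both wild-type pools, as were all 6 lower, and the other 15 entered through null 1 alone. The 6 were Ptn, Pgm5, Cxcl12, Sfrp1, Mfap4 and Itm2a, and each of them was also below both wild-type pools in the levels given above.

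With both null pools set against both wild-type pools, limma called 2 of 22440 probes (0.00891%) and none of the 56 of the 150 genes tested there. Without adjustment 1685 probes had a p under 0.05. Null 2 is part of that contrast, so what follows was shaped by the choice of genes. At least 2-fold higher without overlap were 26 of the 56, against 4.56% of 12120 genes, and the median was 1.91. Without null 2 the median was 0.19, and without null 1 it was 3.54.

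Other probes of a gene read the same RNA, so they are not replicates. For 53 of the 150 genes the arrays held 69 further probes, of which 43 for 34 genes were well above background in null 2. Of these 43, 32 were seen on null 2 alone, which favours null 2 as the highest pool. The other 11 were seen in a further pool, and 9 of them were highest in null 2, with a median gap of 3.03 over the 11. The other 26 probes were not well above background in null 2, and over all 69 the median gap was 1.75.

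**Figure D5:**
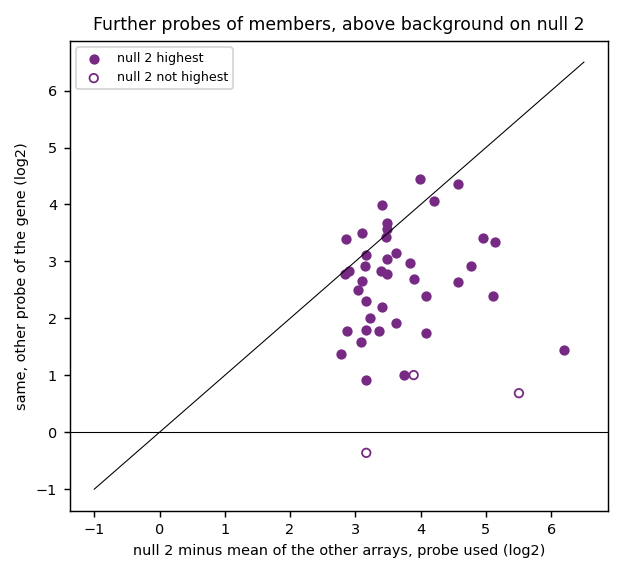
Gap of null 2 to the mean of the other pools (log2) for the 43 further probes well above background in null 2 (vertical axis) against that of the probe used for the same gene (horizontal axis), with the diagonal marking equal gaps. Most points lie above 0 and below the diagonal, and 3 open points were not highest in null 2.

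The open points in the plot of further probes are those of Rgs8, Flnc and Ncam1. The Rgs8 probe read -4.58 in null 2 and -3.68 in wild type 1, and Ncam1 has further probes beside this 1. The largest disagreements over all 69 further probes were those of Ak5, an adenylate kinase of brain, Asic1 and Pgm5, each with a further probe that was not well above background in null 2. For Ak5 and Asic1 no further probe was well above background in null 2, so their level there rests on the probe used. Pgm5 has another further probe that was seen on null 2 alone. The further probes of Pax1, Chrng, Adamts2, Olfr493 and S1pr3 were not well above background in null 2 either. The null 2 levels of these genes thus also rest on the probe used. Dcx and Clstn2 each have a further probe not well above background in null 2 and another seen on null 2 alone.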

How the data were processed

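The deposited files hold the scanner's intensity values of 4 arrays of 1 colour, extracted with Agilent Feature Extraction 10.7.3.1 per the file headers and the submitters' processing notes, with background subtracted and no scaling between arrays. Per the labels, 4 ng of RNA per pool was amplified, which can add noise to weak signals. The authors' deposited value table holds the same intensity values to within 0.497% and was an alternative. Computed here were log2 signals minus the array's 75th percentile over 43379 spots. Spots of a probe were averaged and outlier spots left out, which kept 41153 of 41174 probes. RefSeq names (GRCm38.p6) matched 26877 probes, and 14276 stayed unnamed. The array was designed on another build, so no probe coordinates are given. The probe with the highest mean over arrays stands for a gene. Well above background is the scanner software's own mark.

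Genotype and null 1 were tested with limma 3.58.1 in R 4.3.3 (two-sided, Benjamini-Hochberg, threshold 0.05), the second in a fit of 3 groups over probes well above background on both wild-type arrays or on null 1. The script was tested on simulated data. Normexp, an alternative, used median spot signals with an offset of 50, since the scanner output holds no mean spot signals. The 150 genes, the 27 lists and the tests were chosen with earlier results of these data known. The genes named are the 20 with the largest gap, up to 3 of each list, those at the limit, those with the smallest p and those whose probes disagree most. Role groups, further names and the restriction of list counts to genes seen on another array were chosen after their values were seen.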

Additional observations from a re-analysis of the deposited data

How the results depend on the processing

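The gap of null 2 kept its direction under every scaling tried for the 150 genes together. Its median was 3.36 as reported, 1.02 with normexp background correction, which draws dim signals together, and 2.68 for the 43 further probes of the same genes that were well above background in null 2 (1.75 for all 69). Leaving out 1 of the other arrays gave 3.18 to 3.58. The same rule chose 59 of the 150 again with normexp, 122 with the mean over all probes of a gene, 145 to 150 with the other scalings and 117 to 134 with an array left out. Single genes with normexp turned to -0.048 for Upk3b and -0.016 for Csn1s1. The count of probes called between null 1 and wild type was 0 as reported, 367 with quantile normalization, 198 with the median of probes above background, 12722 with spiked-in RNA (859 higher and 11863 lower, as all genes moved by -0.95) and 3388 with normexp. The median of null 1 minus wild type over the tested members was 0.19, and it was -0.77 with spiked-in RNA and ran from -0.18 without wild type 2 to 0.36 without wild type 1. For genotype the 2 calls became 100 with spiked-in RNA (76 higher and 24 lower), 0 with no filter on dim probes (1474 at an unadjusted p under 0.05 by limma) and 0 to 0 with an array left out (607 to 5643 at an unadjusted p under 0.05). The genotype median of 1.91 became 1.28 with spiked-in RNA and 1.21 with normexp, and ran from 0.19 to 3.54 with an array left out. With the replicate number as a block the genotype fit called 13 probes, 8 higher and 5 lower. Deviations from the genotype mean of arrays with the same number correlated at 0.07 over 22440 probes. The numbers were therefore not taken to pair the pools, of which there would be only 2 pairs. Apart from construction, the cause of these changes was not tested. Signal over background limits the 81 genes seen on null 2 alone to bounds.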
